A study of Rattus norvegicus with 20 samples.

Results

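The miR-183 cluster is a group of miRNAs, miR-183, miR-96 and miR-182, that lie close together in the genome. Its members were taken as the array entries named rno-miR-183, rno-miR-96 and rno-miR-182, which gave 3 of the 348 rat miRNAs that carried 1 name on every array. Their levels were read from 20 arrays of rat miRNAs (Agilent, 1 colour), 10 of dorsal root ganglia (DRGs, which hold the cell bodies of the sensory neurons) and 10 of the soleus, a muscle of the lower leg supplied by the sciatic nerve. The study asked whether compression of the sciatic nerve changes miRNA levels in neurons and muscle differently from denervation, and whether decompression alters them.

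All rats were male Sprague-Dawley rats, and both tissues came from the operated side. In the denervation group the sciatic nerve had been cut, a piece removed and the proximal stump tied off so that it could not regrow into the leg, and tissue was taken at 6 months. In the entrapment group a loose silastic tube had been left around the nerve for 6 months. In the decompression group the tube was taken off after 6 months and the rats were kept for 3 months more. The sham group had an operation without nerve injury, and its time after surgery is not given by the labels. Each tissue had 3 arrays for denervation, 3 for entrapment, 3 for decompression and 1 for sham. The methods speak of 3 rats in every group, sham included, so whether the sham array holds 1 rat or a pool was not given in the sources used here. No weight can be put on the spread of the sham group, since 1 array has none.

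In sensory organs and ganglia this cluster is known as a marker of sensory cells: hair cells of the inner ear, photoreceptors of the retina and sensory neurons of the ganglia all express it. The members are cut from hairpin precursors and, like other miRNAs, pair with target messenger RNAs mainly through the seed, bases 2 to 8 of the mature strand. miR-96 is known from inherited hearing loss caused by changes of its seed. miR-183 is known with its neighbours for a part in the sense of touch and in mechanical pain, and miR-182 is known to target Foxo3, a transcription factor of the muscle atrophy programme.

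The mature sequences are shown because the members share most of their seed and yet did not all move the same way. They are RefSeq sequences on the rat assembly GRCr8, written 5′ to 3′, with the seed in capitals. All 3 members matched an entry, and for miR-183 and miR-96 the 5p strand was taken, since the array names give no arm.
miR-183, chr4:59756106-59756127, minus strand: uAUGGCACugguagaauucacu
miR-96, chr4:59755901-59755923, minus strand: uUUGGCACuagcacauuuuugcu
miR-182, chr4:59752249-59752273, minus strand: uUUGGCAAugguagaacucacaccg

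Counted from 1 at the 5′ end, the seeds of miR-96 and miR-183 differed by U2A, those of miR-96 and miR-182 by C8A, and those of miR-183 and miR-182 by A2U and C8A. Over the whole mature strand the closest pair was miR-183 and miR-182, which were identical at 18 of 22 aligned positions without gaps (81.8%). miR-96 matched miR-183 at 13 of 22 positions and miR-182 at 12 of 23. None of the 3 seeds was found in any other of the 724 mature rat entries of the table.

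The hairpins show how near the members lie to each other. They are given in the order in which the minus strand is read, with the mature strand in capitals.
Mir183, chr4:59756044-59756153, minus strand: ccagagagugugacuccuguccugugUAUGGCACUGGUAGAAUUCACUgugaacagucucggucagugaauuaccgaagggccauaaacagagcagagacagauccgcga
Mir96, chr4:59755841-59755946, minus strand: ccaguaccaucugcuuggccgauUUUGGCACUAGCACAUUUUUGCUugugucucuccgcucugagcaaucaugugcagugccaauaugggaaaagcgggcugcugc
Mir182, chr4:59752246-59752307, minus strand: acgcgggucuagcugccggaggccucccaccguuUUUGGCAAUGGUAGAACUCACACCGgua

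Only 97 bases separated the hairpins of miR-183 and miR-96, while 3533 bases lay between those of miR-96 and miR-182. The 3 hairpins spanned 3908 bases between the coding genes Nrf1 and Ube2h, and 1 other gene, Mir3553, overlapped the span.

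Before the results, some facts of the arrays bear on them. The value used was the total gene signal, a background-subtracted intensity, divided by the 75th percentile of its array and brought back to intensity units (the scaled signal). In the DRGs this percentile was lower on the 6 entrapment and decompression arrays (72.0 to 88.1) than on the sham and denervation arrays (97.5 to 117), and fewer miRNAs were detected there, 183 to 200 against 213 to 233. Of 45 control features, 24 separated the same 4 arrays from the same 6 in the DRGs, so that condition and array handling cannot be told apart in this tissue. The values that the authors deposited for the DRG entrapment arrays equal the scanner signals of the decompression arrays and the other way round, apart from a constant per array, so these 2 names may be exchanged in the DRGs. In these pieces of tissue, fewer cells of a type and less RNA per cell cannot be told apart.

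The tissue labels were checked against miRNAs known from neurons and muscle. The neuronal miRNAs miR-124, miR-9 and miR-138 were detected on 10 of 10 DRG arrays and on 0 of 10 soleus arrays. They are among 6 of the 10 neuron-listed miRNAs tested in the DRGs with that pattern, while miR-212 and miR-128 were detected on 10 of 10 soleus arrays and miR-218 and miR-7a on 7. The 5 listed muscle miRNAs summed to between 47965 and 299142 in soleus and to between 261 and 467 in the DRGs, on a scale set over both tissues.

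In the DRGs all 3 members were detected on 10 of 10 arrays. miR-183 and miR-96 were higher after entrapment and after decompression than after denervation, by 1.40-fold and 1.42-fold for miR-183 and by 1.21-fold for miR-96 in both. miR-182, from the same stretch of chromosome 4, did not pass the test in either comparison. With no scaling the calls of miR-183 and miR-96 were lost and miR-182 was lower after entrapment and decompression. On the scaled signals no member passed the test against the sham array in any injury group.

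On the sham array the scaled signal of miR-183 was 324. It reached 267, 296 and 300 on the denervation arrays, 376, 410 and 419 on the entrapment arrays, and 400, 411 and 411 on the decompression arrays. Every denervation array lay below sham, as for 36.5% of the 219 miRNAs tested in the DRGs. Every entrapment and decompression array lay above it, as for 26% and 32% of them. The entrapment and decompression groups overlapped. The group means were 288 ± 18.5 for denervation, 402 ± 22.7 for entrapment and 408 ± 6.32 for decompression (SD, n = 3 each). With no scaling the sham signal of 374 lay within those after entrapment (313, 356 and 427) and after decompression (351, 404 and 359).

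The sham array gave 1858 for miR-96. It was 1586, 1716 and 1807 after denervation, 1892, 2161 and 2129 after entrapment, and 2104, 1973 and 2095 after decompression. As for miR-183, and with the same shares over all tested miRNAs, the denervation arrays lay below sham and the entrapment and decompression arrays above it. The gaps were narrower, and the lowest entrapment array stood only just above sham. The means were 1703 ± 111 for denervation, 2061 ± 147 for entrapment and 2057 ± 72.8 for decompression (SD, n = 3 each). With no scaling the sham signal of 2142 lay above those after decompression (1846, 1938 and 1828) and within those after entrapment (1576, 1873 and 2167).

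The scaled signal of miR-182 was highest on the sham array, at 339. Denervation gave 282, 295 and 312, entrapment 253, 277 and 293, and decompression 283, 256 and 313. All 9 injury arrays lay below sham. For denervation, entrapment and decompression this was the case for 36.5%, 48.4% and 46.6% of the 219 tested miRNAs. The 3 injury groups overlapped each other. Their means were 296 ± 15.3, 274 ± 20.03 and 284 ± 28.2 (SD, n = 3 each). The error that Feature Extraction gave for a single DRG signal was 7.07% to 8.27% of it over the 3 members, and the number of arrays limits the precision.

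**Figure D1:**
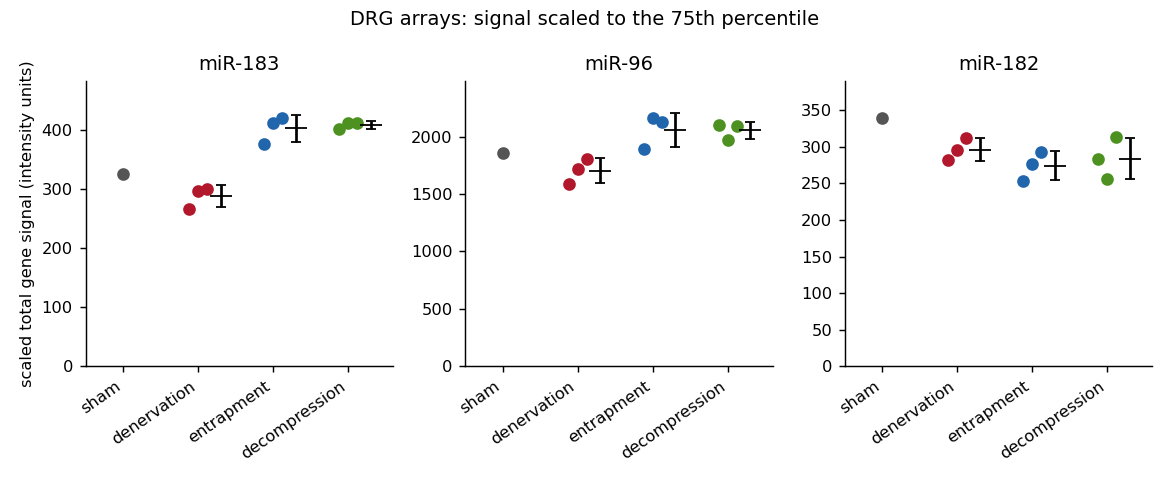
Scaled signal of miR-183, miR-96 and miR-182 on the 10 DRG arrays, in intensity units on axes that start at 0. Each point is 1 array, the horizontal bars and whiskers are the mean and SD of 3 arrays, and sham is a single array. On this scale miR-183 and miR-96 are higher after entrapment and decompression than after denervation and miR-182 overlaps between the injury groups. With no scaling the first 2 differences are lost (log2 values of 0.04 and 0.07 for miR-183, -0.17 and -0.16 for miR-96) and miR-182 is lower than after denervation (-0.56 and -0.50).

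The comparison of the 2 kinds of injury was tested with limma on log2 scaled signals of the 219 miRNAs detected on at least 3 DRG arrays, with p-values adjusted by the Benjamini-Hochberg method over all 219. These p-values measure the spread between arrays, which the labels call experimental replicates. Between entrapment and denervation 41.1% of the tested miRNAs passed the adjusted threshold of 0.05, with 8.22% higher after entrapment and 32.9% lower. Against this background, 2 of the 3 members passed, both higher after entrapment.

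miR-183 was 0.48 higher after entrapment than after denervation on the log2 scale (SE 0.08, adjusted p = 0.00132), and higher on 3 of 3 arrays. miR-96 was 0.27 higher (SE 0.08, adjusted p = 0.0316), also on 3 of 3 arrays. The value of miR-182 was -0.11 (SE 0.10, adjusted p = 0.388), with a 95% interval from -0.33 to 0.11. With no scaling miR-183 lost its call at 0.04 (adjusted p = 0.814), miR-96 turned to -0.17 (adjusted p = 0.311), and miR-182 passed at -0.56 (adjusted p = 0.0114).

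Decompression against denervation gave nearly the same picture for the cluster, and these 2 comparisons share the denervation arrays. Here 36.5% of the tested miRNAs passed, 8.68% higher and 27.9% lower. miR-183 was 0.50 higher (SE 0.08, adjusted p = 0.00114) and miR-96 was 0.27 higher (SE 0.08, adjusted p = 0.0339). miR-182 gave -0.06 (SE 0.10, adjusted p = 0.624, 95% interval -0.29 to 0.16). With no scaling the values were 0.07 for miR-183 (adjusted p = 0.673), -0.16 for miR-96 (adjusted p = 0.344) and -0.50 for miR-182 (adjusted p = 0.0190), so that here too miR-182 was the member that passed.

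The call of miR-96 was fragile. Against entrapment it was lost without denervation 1 or 2, entrapment 2 or 3, or decompression 2, with log2 values from 0.22 to 0.28 and adjusted p-values from 0.0501 to 0.114. Against decompression it was lost without denervation 1 or 2 or without any single decompression array, with values from 0.22 to 0.30 and adjusted p-values from 0.0565 to 0.135. On the scaled signals miR-183 kept its call without any 1 array in both comparisons, at 0.43 to 0.53 and 0.45 to 0.54.

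Most miRNAs moved the other way on this scale. The median over all 219 tested miRNAs was -0.15 on the log2 scale for entrapment against denervation and -0.15 for decompression against denervation. Relative to that median, the members' differences after entrapment were 0.63 for miR-183, 0.42 for miR-96 and 0.04 for miR-182. With no scaling and with median scaling these values had to be the same, since such scalings shift all miRNAs of an array alike. With quantile scaling they were 0.47, 0.23 and -0.11. After decompression the members' differences from the median were 0.65, 0.42 and 0.08, or 0.45, 0.16 and -0.07 with quantile scaling. miR-183 had the 9th largest increase of the 219 after entrapment and the 10th largest after decompression, and miR-96 the 23rd and 27th. With quantile scaling these places were 27 and 32 for miR-183 and 58 and 77 for miR-96. miR-182 stood at rank 100 and rank 94, near the middle of the list.

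**Figure D2:**
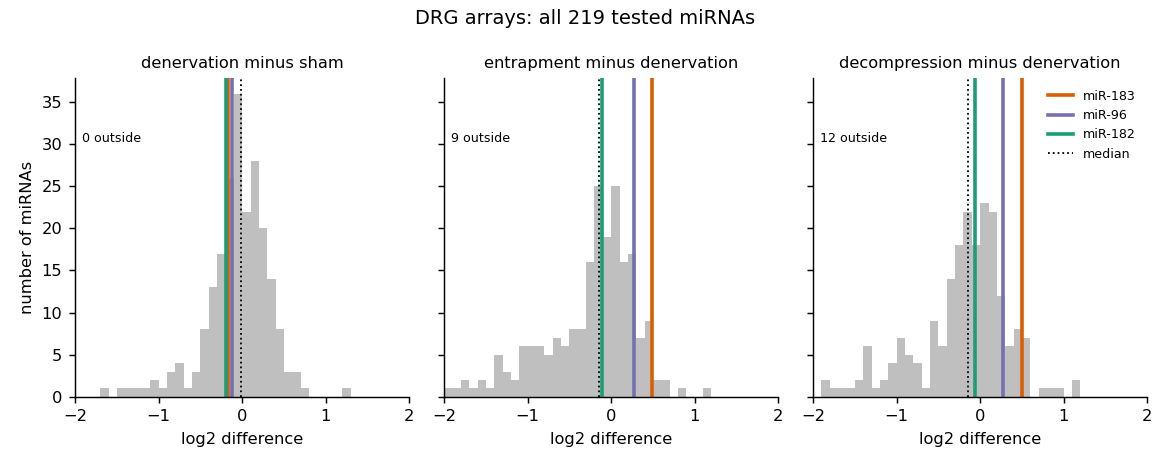
Log2 differences of all 219 tested miRNAs in the DRGs (grey, number of miRNAs per bin) with miR-183, miR-96 and miR-182 as vertical lines and the median of all as a dotted line. In the middle and right panels miR-183 and miR-96 lie in the right tail (0.48 and 0.27, and 0.50 and 0.27) and miR-182 lies close to the median. With no scaling miR-183 falls to 0.04 and 0.07 and miR-96 turns to -0.17 and -0.16, while miR-182 falls to -0.56 and -0.50. The 9 and 12 miRNAs beyond the axis are counted in those panels.

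Against sham the test rests on 1 array whose spread was assumed to be that of the other groups. After denervation 0.457% of the tested miRNAs passed (1 of 219), and 34 had an unadjusted p under 0.05. None of the 3 members passed at either level. The log2 values were -0.17 for miR-183 (SE 0.11, adjusted p = 0.459), -0.13 for miR-96 (SE 0.12, adjusted p = 0.610) and -0.20 for miR-182 (SE 0.14, adjusted p = 0.497). Every one of the 9 denervation values lay below its sham value, as was the case for 36.5% of all tested miRNAs.

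After entrapment 19.6% of the tested miRNAs passed against sham, 2.28% higher and 17.4% lower. The log2 values of the members were 0.31 for miR-183 (SE 0.11, adjusted p = 0.0734), 0.15 for miR-96 (SE 0.12, adjusted p = 0.376) and -0.31 for miR-182 (SE 0.14, adjusted p = 0.140), with miR-183 at -0.04 and miR-96 at -0.21 with no scaling, where miR-182 passed at -0.66 (adjusted p = 0.0413). miR-183 had an unadjusted p of 0.0211 and passed after adjustment without entrapment 1, at 0.36 (adjusted p = 0.0400).

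After decompression 18.3% passed against the same sham array. Here the values were 0.33 for miR-183 (SE 0.11, adjusted p = 0.0645), 0.15 for miR-96 (SE 0.12, adjusted p = 0.382) and -0.26 for miR-182 (SE 0.14, adjusted p = 0.202), with -0.01 for miR-183 and -0.20 for miR-96 with no scaling. Without entrapment 1, which enters the shared spread, miR-183 passed here too, at 0.33 (adjusted p = 0.0454). miR-183 and miR-96 stood above sham on all 3 decompression arrays, which held for 32% of all tested miRNAs, and miR-182 below it, which held for 46.6%. After entrapment the same shares were 26% and 48.4%. No member differed by 2-fold from sham, the size of change that the study's methods take, where 0.913%, 11% and 13.7% of the tested miRNAs were lower by 2-fold on each array after denervation, entrapment and decompression.

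Entrapment and decompression were not told apart by any member. The log2 differences, decompression minus entrapment, were 0.02 for miR-183 (95% interval -0.15 to 0.20), -0.00 for miR-96 (-0.19 to 0.19) and 0.05 for miR-182 (-0.17 to 0.27), and the signs of miR-183 and miR-96 turned under some scalings. Of all 219 tested miRNAs 0% passed in limma, and 9 had an unadjusted p under 0.05. If the names of these 2 groups are exchanged in the DRGs, the comparisons with denervation and with sham trade places.

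On the scaled signals the groups were ordered differently for miR-182 than for the others in the DRGs. For miR-183 and miR-96 denervation was lowest, followed by sham, entrapment and decompression (miR-183) or sham, decompression and entrapment (miR-96). Neither denervation and sham nor sham and the next group differed past the threshold, and entrapment and decompression overlapped. For miR-182 entrapment was lowest, followed by decompression, denervation and sham, with no neighbours that differed past the threshold. With no scaling miR-96 had this order too, at -0.21, -0.20 and -0.04 against sham after entrapment, decompression and denervation. Sham then also became highest for miR-183, with denervation at -0.08, entrapment at -0.04 and decompression at -0.01. The contrast in order thus depended on the scaling.

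A ratio of 2 members on the same array does not depend on the scaling. The log2 ratio of miR-182 to miR-183 was 0.07 on the sham array. On the denervation arrays it was 0.08, -0.01 and 0.06, on the entrapment arrays -0.57, -0.57 and -0.52, and on the decompression arrays -0.50, -0.68 and -0.39. The sham and denervation arrays lay together, and all 6 entrapment and decompression arrays lay below them without overlap. The signal of miR-182 was thus 1.03 times that of miR-183 after denervation, 0.682 times after entrapment and 0.695 times after decompression, as a change in the ratio of the signals and not of molecules.

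The ratio of miR-182 to miR-96 moved alike. Its log2 value was -2.45 on the sham array and -2.52 ± 0.02 after denervation, against -2.91 ± 0.05 after entrapment and -2.86 ± 0.10 after decompression (SD, n = 3 each). miR-183 also gained on miR-96, with log2 ratios of -2.52 on the sham array, -2.57 ± 0.03 after denervation, -2.36 ± 0.03 after entrapment and -2.34 ± 0.07 after decompression (SD, n = 3 each). In both ratios the 4 sham and denervation arrays and the other 6 did not overlap.

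An exact permutation test over all 280 ways to divide the 9 injury arrays into groups of 3 gave p = 0.0286 for miR-183 over miR-96, p = 0.0250 for miR-182 over miR-183 and p = 0.0214 for miR-182 over miR-96. The smallest p that this test can give is 0.00357, and each p was 0.0286 after Benjamini-Hochberg adjustment over the 3 ratios. Any 1 of the ratios follows from the other 2, and the tests with miR-182 were added after the values were seen. Divisions of this kind were common on these arrays. Among the 172 other miRNAs detected on all DRG arrays, the ratio to miR-183 separated the same 4 arrays from the same 6 for 61% (all lower in the 6), the ratio to miR-96 for 39.5% and the ratio to miR-182 for 27.9%.

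**Figure D3:**
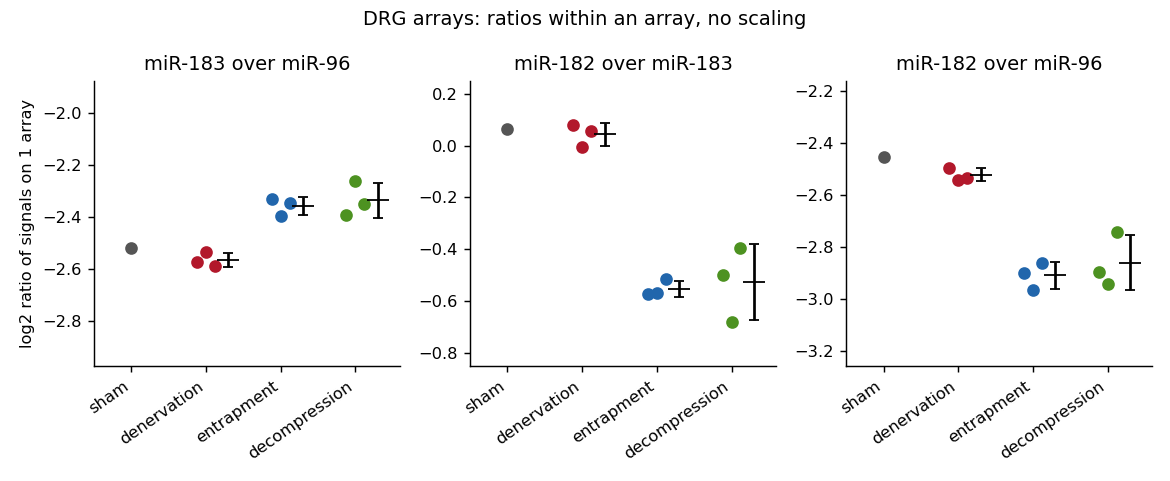
Log2 ratio of the signals of 2 members on the same DRG array, with no scaling, for the 10 arrays. Points are single arrays, bars and whiskers the mean and SD of 3, and the vertical axes do not start at 0. miR-182 over miR-183 falls from near 0 on the sham and denervation arrays to between -0.68 and -0.39 on the other 6, and miR-182 over miR-96 from about -2.5 to between -2.97 and -2.74.

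miRNAs whose signal followed the members over the 10 DRG arrays were looked for among the 172 others detected on all of them, by Pearson's r of the log2 scaled signals, as a description over 10 arrays that fall into groups. The nearest to miR-183 were miR-34a (r = 0.96), miR-96 (0.95), miR-652 (0.93), miR-500 (0.92) and miR-551b (0.91). For miR-96 they were miR-183 (0.95), miR-410 (0.91), miR-34a (0.91), miR-154 (0.90) and miR-652 (0.90). The 2 members with the nearest hairpins were thus within the first 2 places of each other's list.

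miR-182 had other neighbours. They were miR-376b-5p (r = 0.91), miR-1 (0.81), miR-150 (0.81), miR-376b-3p (0.81) and miR-335 (0.78), and its r was -0.32 with miR-183 and -0.09 with miR-96. When each array was taken relative to the mean of its own group, r was 0.60 for miR-182 with miR-183, 0.78 for miR-182 with miR-96 and 0.84 for miR-183 with miR-96, over the 9 injury arrays. Within groups all 3 members thus varied in the same direction, and it was between groups that miR-182 parted from the others. These arrays share their scaling, which moves all miRNAs of an array at once.

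miR-1 is a muscle miRNA and miR-150 is known from lymphocytes. Their log2 differences between entrapment and denervation in the DRGs were -0.61 for miR-1 (SE 0.33, adjusted p = 0.184) and -0.49 for miR-150 (SE 0.12, adjusted p = 0.0151). The muscle list summed to 261 to 327 after denervation and 313 to 412 after entrapment, and the leukocyte list, of which 4 of 5 names were on the array, to 729 to 1167 and 586 to 819. Whether RNA of such cells had a part in the values of miR-182 was not tested.

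Other miRNAs known from neurons give a setting for the cluster. Of 16 on the array, 10 were tested in the DRGs, and 0 of these passed against sham after denervation, with a median log2 difference of -0.27 where that of all tested miRNAs was -0.02. The largest size was that of miR-7a, at -0.46 (adjusted p = 0.290), followed by miR-128, at -0.42 (adjusted p = 0.137). After entrapment and after decompression 0 passed as higher and 2 as lower against sham, a share of the 10 close to the 19.6% and 18.3% of all tested miRNAs. These were miR-9, known from neurogenesis, at -1.23 (SE 0.16, adjusted p = 0.000971) and -1.25 (SE 0.16, adjusted p = 0.000870), and miR-212, known from activity-dependent transcription in neurons, at -1.43 (SE 0.21, adjusted p = 0.00184) and -1.38 (SE 0.21, adjusted p = 0.00238).

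Between entrapment and denervation 3 of the 10 passed as higher and 2 as lower, where 8.22% and 32.9% of all tested miRNAs did so and 41.1% in all. The number that passed ranged from 2 to 7 over the alternatives tried. It was 2 with no scaling, where the median of all tested miRNAs was -0.59. On the scaled signals the higher ones, named after their values were seen, were miR-124 at 0.50 (SE 0.08, adjusted p = 0.00128), miR-128 at 0.41 (SE 0.08, adjusted p = 0.00346) and miR-7a at 0.66 (SE 0.14, adjusted p = 0.00541). The lower ones were miR-9 and miR-212. Of the same list, miR-9*, the other strand of miR-9, gave 0.04 here. Against sham it gave 0.18 after entrapment and 0.12 after decompression, so the fall of miR-9 was not shared by miR-9*. The median of the 10 was 0.15, where that of all tested miRNAs was -0.15. On the scale set over both tissues the whole neuron list summed to 3533 to 3737 after denervation, 4033 to 4371 after entrapment, 3715 to 4370 after decompression and 4281 on the sham array. The miRNAs of glia, 3 in all, had 0 higher and 2 lower, with a median of -0.49. Their sum was 12238 to 13376 after denervation and 13083 to 14191 after entrapment, and miR-338, known from myelinating glia, gave -0.03 (adjusted p = 0.864). Whether the share of neurons in the tissue had a part in the values of the cluster was not tested.

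In the soleus the members were at or below the limit of detection on most arrays. miR-183 was detected on 0 of 10 arrays, and each of its signals was below 0 after background subtraction. miR-96 was detected only on decompression 1, at an unscaled signal of 30.7 with an error of 3.38. miR-182 was detected on denervation 1 and 2. None of the 3 reached the detection on 3 arrays that the test within the soleus required.

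The signal of miR-182 was 16.7 with an error of 2.61 on soleus denervation 1, 87.0 with an error of 5.70 on denervation 2 and 8.26 with an error of 2.06 on denervation 3, which was called not detected. On all other 7 soleus arrays, the sham array included, its signal was below 0. Scaled over the miRNAs detected on all soleus arrays, the denervation arrays gave 12.8, 37.5 and 21.8. All 3 denervation arrays thus lay above every other soleus array, as was the case for 8.55% of 234 miRNAs tested over both tissues. On the scale set over both tissues the mean of the denervation group was 7.87-fold above sham, 6.63-fold above entrapment and 7.68-fold above decompression. Each dim array was set there to the highest of its own signal, its lowest signal of a detected miRNA and the detection floor of 2.32. These folds are not lower bounds, since the mean of 18.3 includes denervation 3, which at 18.1 was called not detected.

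On the scale set over both tissues a limma fit of all 20 arrays, added after the values were seen, gave a log2 difference of 2.98 for miR-182 in soleus denervation against sham (SE 0.37). Leaving out single arrays moved it between 2.59 and 3.36. In a fit of the soleus alone without the filter on detection it was 3.01 (SE 0.50). In the fit of all 20 arrays miR-182 passed the filter on detection only through the DRGs. The sham group was 1 array at the floor, so no p-value is given for either fit. Both SEs are too small, because 7 of the soleus values stood at the floor and had no spread. Denervation 1 and 2 and the sham array shared another file layout, and 11 to 15 of their control signals equalled those of another array against 0 to 8 elsewhere. The part of this in the result was not tested, and denervation 3, with the usual layout, was the array where miR-182 was called not detected.

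The neuron list had 2 to 4 of 16 miRNAs detected on each soleus array. On the scale set over both tissues it summed to 379 to 457 after denervation and to 220 to 325 on the other 7 arrays. Of this list, miR-124, miR-9 and miR-138 were detected on 0 of 10 soleus arrays, miR-212 and miR-128 on 10, and miR-218 and miR-7a on 7. miR-183 and miR-96 were detected on 0 of the 3 denervation arrays.

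The difference between the tissues was large for each member. On the scale set over both tissues, each soleus array was set as the dim arrays were above, which is not a strict limit of detection. For miR-183 the DRGs were 156-fold, 91.0-fold, 175-fold and 205-fold above these soleus values in sham, denervation, entrapment and decompression. These folds are not lower bounds. Signals of 18.1 for miR-182 on soleus denervation 3 and 7.54 for miR-96 on soleus entrapment 3 were called not detected. For miR-96 the folds were 892, 521 and 720 in sham, denervation and entrapment. In decompression 1 of 3 soleus arrays measured miR-96, at 26.0 on this scale against a DRG mean of 2459. For miR-182 the folds were 163, 119 and 142 in sham, entrapment and decompression. In denervation 2 of 3 soleus arrays measured miR-182, and the means were 325 in the DRGs and 20.02 in the soleus.

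As a mean over the 4 groups, the log2 difference between DRGs and soleus in limma was 7.45 for miR-183 (SE 0.06, adjusted p = 4.70e-21), 9.35 for miR-96 (SE 0.39, adjusted p = 5.27e-12) and 6.46 for miR-182 (SE 0.16, adjusted p = 7.63e-15). Most soleus values of the members stood at the floor and had no spread, so these SEs and p-values are too small. In this fit 81.2% of 234 miRNAs passed, 62.4% higher in the DRGs, so a call is no mark of the cluster. The members passed the filter on detection through the DRGs. Detection on all 10 DRG arrays and no soleus array, as for miR-183, was met by 12.8% of the 234. The lowest DRG array lay above the highest soleus array for all 3 members and for 36.3% of the 234.

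For miR-182 the fit over both tissues gave a difference in the effect of denervation, which these values do not establish. It rests on 1 sham array per tissue, the soleus one at the floor, and miR-182 passed the filter on detection through the DRGs. On the common scale the mean was 325 after denervation against 378 on the sham array in the DRGs, while the soleus gave the log2 difference of 2.98 above, and the effect in the DRGs minus that in the soleus was -3.20 (SE 0.52, adjusted p = 0.000927), where 23.5% of 234 miRNAs passed (27.4% for entrapment and 27.8% for decompression). Of the 9 such differences computed for the 3 members and 3 injuries it was the 1 past the threshold, and the lowest adjusted p of the others was 0.118. It lost its call with no scaling (adjusted p = 0.139) and with the authors' processed values (adjusted p = 0.0829), and its p is too small for the reason given above for the soleus.

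**Figure D4:**
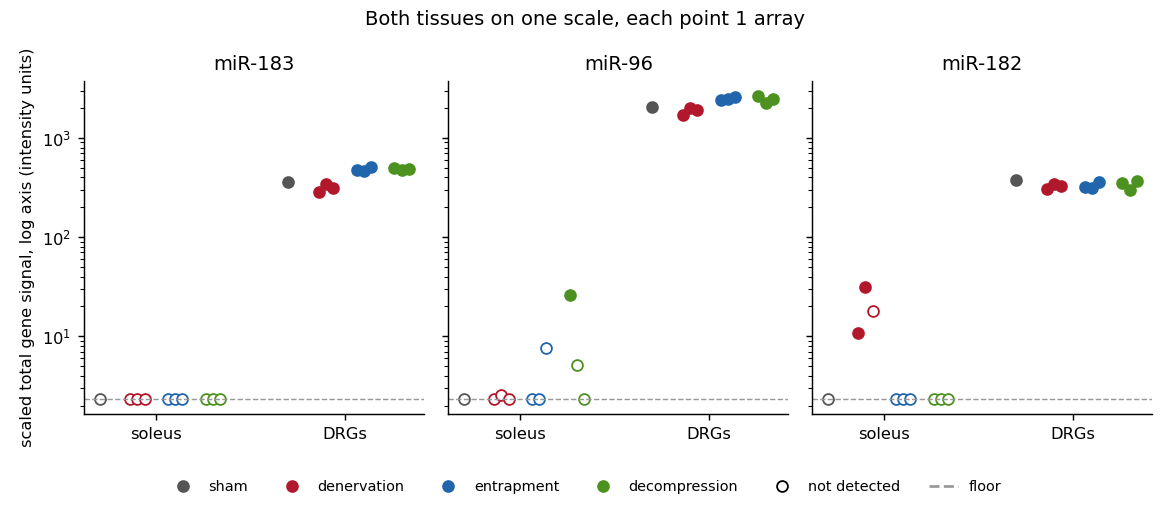
Scaled signal of miR-183, miR-96 and miR-182 in soleus and DRGs on a scale set over both tissues (log axis, intensity units). Each point is 1 array, open points were called not detected, and the dashed line is the detection floor, to which lower values were set. The DRG points stand above all soleus points, and in the soleus miR-182 leaves the floor only on the 3 denervation arrays.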

How the data were processed

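The scanner files that the authors deposited give, for each miRNA, a linear intensity (the total gene signal over all its probes, less background) made by Agilent Feature Extraction 9.5.3, beside an error estimate and a call of detected or not. A second table that the authors deposited holds processed signal values, equal to the scanner intensity divided by a constant per array (within 1% for nearly all), and was used as an alternative. The methods name rank-consistency LOWESS, whose settings are not given in the sources used here. The labels describe labelling with Cy3-CTP and the methods with pCp-Cy3.

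Each array was divided by its 75th percentile, taken over all 348 miRNAs in the DRGs, over 108 miRNAs seen on every array in soleus, and, for both tissues, over 102 seen on every 1 of the 20. In soleus this percentile ranged from 409 to 2539. Before log2 was taken, lower values were raised to a detection floor. Control features and the 2 of 350 miRNAs without 1 name were left out. miRNAs detected on at least 3 arrays were fitted with limma 3.58.1 (lmFit, eBayes, R 4.3.3), with 1 mean per group, 6 residual and 2.12 prior degrees of freedom in the DRGs, and 12 and 2.12 over both tissues. The limma tests were two-sided, with Benjamini-Hochberg adjustment at 0.05. Ratios within an array were tested by exact permutation. The fits were tested on simulated data. The members and lists were chosen with earlier results of these data known. Named miRNAs are the members and the 5 nearest neighbours of each over the DRG arrays. Of the neuron list, some were named for large differences from sham or from denervation, and others for their detection in the soleus. miR-9* was named beside miR-9, and miR-338 from the glia list. Alternatives were other scalings, filters and fits, the processed values, and leaving out each array. Slides and scans were not tested as batches. Plots were made in Python 3.11.15 (matplotlib 3.10.9).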

Additional observations from a re-analysis of the deposited data

Results flagged for a closer look

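In limma the effect of denervation on miR-182 in the DRGs minus that in the soleus was -3.20 on the log2 scale (SE 0.52, adjusted p = 0.000927). It rests on 1 sham array per tissue, and miR-182 passed the filter on detection through the DRGs. It was flagged because miR-182 lay below sham on all 3 denervation arrays of the DRGs and above sham on all 3 of the soleus. The first held for 36.5% of 219 tested miRNAs, and the DRG difference of miR-182 did not pass. All soleus denervation arrays lay above every other soleus array for 8.55% of 234 miRNAs, and soleus denervation 3 was called not detected for miR-182. The test was added after the values were seen, and 7 of the soleus values lay at the detection floor without spread, so its p is too small. The size depends on the floor (-9.88 with a floor of 0.01 on the unscaled signal), and the call was lost with no scaling (-3.22, adjusted p = 0.139) and with the authors' processed values (-3.75, adjusted p = 0.0829).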

How the results depend on the processing

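Over the alternatives other than leaving out an array, 242 values kept their direction and their side of the threshold, 13 changed direction, 10 gained a call and 8 lost it. With no scaling, the log2 values against sham after entrapment and decompression turned to -0.045 and -0.012 for miR-183 and to -0.21 and -0.20 for miR-96, and those against denervation lost their calls, at 0.040 and 0.073 for miR-183 and -0.17 and -0.16 for miR-96. The values of miR-182 then passed, at -0.66 for entrapment against sham and at -0.56 and -0.50 for entrapment and decompression against denervation. miR-96 lost its call for entrapment against denervation with median scaling (0.21), with the authors' processed values (0.21) and in a fit of only the groups compared (0.27), and for decompression against denervation with quantile scaling (0.18). miR-183 passed against sham after entrapment and decompression with quantile scaling (0.46 and 0.44), with the percentile over miRNAs detected on all DRG arrays (0.29 and 0.28) and without the filter (0.31 and 0.33), and after decompression with an intensity trend (0.33). Decompression minus entrapment changed sign for miR-96 with no scaling (0.011), median scaling (0.057) and the processed values (0.010), for miR-183 with quantile scaling (-0.017), the other percentile (-0.0076) and the processed values (-0.012), and for miR-182 with the processed values (-0.039), whose columns exchange the 2 groups. The tissue difference in the effect of denervation on miR-182 lost its call with no scaling (-3.22) and with the processed values (-3.75). Except for this exchange, the cause was not tested.

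Leaving out each array in turn gave the following ranges of the log2 values. For denervation against sham they were -0.21 to -0.12 for miR-183, -0.17 to -0.08 for miR-96 and -0.23 to -0.16 for miR-182. Entrapment against sham gave 0.28 to 0.36 for miR-183, 0.11 to 0.21 for miR-96 and -0.36 to -0.25 for miR-182. Decompression against sham gave 0.32 to 0.34 for miR-183, 0.13 to 0.18 for miR-96 and -0.33 to -0.19 for miR-182. Against denervation, entrapment gave 0.43 to 0.53 for miR-183, 0.22 to 0.34 for miR-96 and -0.16 to -0.06 for miR-182, and decompression gave 0.45 to 0.54 for miR-183, 0.22 to 0.32 for miR-96 and -0.14 to 0.0071 for miR-182. Decompression against entrapment gave -0.025 to 0.052 for miR-183, -0.061 to 0.035 for miR-96 and -0.024 to 0.12 for miR-182. The difference between DRGs and soleus was 7.39 to 7.50 for miR-183, 9.15 to 9.60 for miR-96 and 6.37 to 6.55 for miR-182. Soleus denervation against sham and against entrapment was 2.59 to 3.36 for miR-182 in both, and its tissue difference in the effect of denervation was -3.58 to -2.80. Entrapment minus denervation in the log2 ratios was 0.19 to 0.23 for miR-183 over miR-96, -0.62 to -0.58 for miR-182 over miR-183 and -0.41 to -0.36 for miR-182 over miR-96. Without decompression 2, decompression against denervation turned to 0.0071 for miR-182.

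The deviations of arrays of the same replicate number correlated between -0.47 and 0.48 over 18 pairs within a tissue and between -0.22 and 0.27 over 9 pairs between tissues. Such correlations cannot show whether the replicate numbers pair the arrays, and the main fits took them as unpaired. With the replicate block miR-183 was 0.48 higher after entrapment than after denervation (adjusted p = 0.00227), miR-96 was 0.27 higher (adjusted p = 0.0393), and the block changed no call of a member.

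The number of miRNAs that passed in the DRGs ranged over all alternatives, leaving out single arrays included, from 1 to 16 for denervation, 19 to 67 for entrapment and 18 to 61 for decompression against sham, and from 55 to 135 for entrapment and 53 to 129 for decompression against denervation.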
